A study of Mus musculus with 10 samples.

Results

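Monocytes are made in the bone marrow, circulate in blood and enter injured tissue, where they can mature into macrophages. The 10 genes described here are used as markers of these cells. They were measured in the lungs of mice given bleomycin, and were chosen by name out of the 33347 genes counted. The 4 C1q macrophage genes are C1qa, C1qb, C1qc and Ms4a7. The 4 monocyte genes are Ccr2, F13a1, Plac8 and Ly6c2, and Csf1r and Cx3cr1 are receptors of both cell types. All 10 passed a filter on low counts that left 10844 genes in all for testing.

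The samples were lung tissue labelled as wild type (WT), all from lungs given bleomycin, a drug that damages DNA and scars the lung. In 5 libraries the lung had received marrow cells in which aldehyde dehydrogenase activity was high (ALDHbr), and in the other 5 marrow cells of low activity (ALDHdim). The labels give no age, strain, sex or time, nor do they tie each library to its own mouse. The p-values therefore describe how far these libraries spread, which may be partly technical. No lung without bleomycin or without transferred cells was analysed here.

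In mice, classical monocytes carry high Ly6C on their surface and leave the marrow through the chemokine receptor CCR2, whose ligands include CCL2, CCL7 and CCL12. The growth factor receptor CSF1R, which binds CSF1 and IL-34, keeps monocytes and macrophages alive. C1q, the molecule that starts the classical complement pathway, is built from 3 chains that each have a gene of their own, and tissue macrophages are a main source of it. In the lung, macrophages of the interstitium and those newly derived from monocytes make C1q, while resident alveolar macrophages form a separate population.

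Libraries were made by BRB-seq, a method that reads the 3' ends of RNA and tags each sample with a barcode. Totals ran from 588063 counts in ALDHbr 2 to 2002947 in ALDHdim 2. Levels are given as CPM, counts scaled to an equal total over the tested genes with TMM factors, and because reads start at the 3' end a level does not scale with transcript length. Lung markers were abundant in every library: Sftpc, a surfactant gene of the alveolar epithelium, had a mean of 22800 CPM in ALDHbr lungs, against 20900 CPM in ALDHdim lungs.

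The 3 C1q genes lie side by side on mouse chromosome 4, in the order C1qb, C1qc and C1qa, all on the minus strand, within 18.7 kb (chr4:136880129-136898803, GRCm38). Because they are neighbours that varied together (values below), the sequence around the start sites of C1qb and C1qc is shown. That of 2 monocyte genes, whose levels spread little beyond counting error, is given with it. RefSeq windows of 300 bases, 250 before and 50 after a start site on GRCm38.p6, were at hand for 8 of the 10 genes, in 12 windows. They were searched on both strands for GAGGAAGT, a site preferred by PU.1, the transcription factor that monocytes and macrophages need. Capitals mark GAGGAAGT or its reverse complement ACTTCCTC, and C1qb, with no match, is in lower case throughout.
C1qb (chr4:136886151-136886450, minus strand): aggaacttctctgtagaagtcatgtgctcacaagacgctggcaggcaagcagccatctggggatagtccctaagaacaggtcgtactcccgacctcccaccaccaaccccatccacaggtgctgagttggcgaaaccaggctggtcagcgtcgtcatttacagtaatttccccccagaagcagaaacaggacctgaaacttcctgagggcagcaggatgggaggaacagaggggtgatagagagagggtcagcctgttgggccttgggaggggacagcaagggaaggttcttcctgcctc
C1qc (chr4:136892865-136893164, minus strand): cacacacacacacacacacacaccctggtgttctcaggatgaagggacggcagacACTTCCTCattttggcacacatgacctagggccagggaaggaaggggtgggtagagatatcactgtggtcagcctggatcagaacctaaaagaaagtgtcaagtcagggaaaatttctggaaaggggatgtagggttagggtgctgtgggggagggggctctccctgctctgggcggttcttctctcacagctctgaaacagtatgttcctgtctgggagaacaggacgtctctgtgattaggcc
F13a1 (chr13:37049164-37049463, minus strand): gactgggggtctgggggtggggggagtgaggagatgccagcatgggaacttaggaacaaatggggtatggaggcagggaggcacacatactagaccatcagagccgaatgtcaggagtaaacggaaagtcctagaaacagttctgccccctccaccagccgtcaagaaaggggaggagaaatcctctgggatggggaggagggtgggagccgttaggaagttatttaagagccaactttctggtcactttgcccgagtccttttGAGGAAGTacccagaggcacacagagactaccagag
Ly6c2 (chr15:75111922-75112221, minus strand): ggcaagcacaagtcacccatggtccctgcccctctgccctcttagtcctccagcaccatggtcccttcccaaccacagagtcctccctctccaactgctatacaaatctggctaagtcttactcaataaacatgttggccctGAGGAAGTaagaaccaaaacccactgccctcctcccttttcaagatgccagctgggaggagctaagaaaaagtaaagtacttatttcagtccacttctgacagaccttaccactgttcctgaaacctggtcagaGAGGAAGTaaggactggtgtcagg
The PU.1 letters began 195 bases before the start site in C1qc, at base 15 after it in F13a1, and 108 bases before and at base 27 after it in Ly6c2. They were in windows of 3 of these 8 genes (4 of 12 windows), against 3.20% of all 32851 windows, and the 2 Ly6c2 windows overlap, so that their matches are the same letters. The other F13a1 window (chr13:37050195-37050494, minus strand) had no match. A match is letters in a window and does not show that a factor binds there.

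C1qa, C1qb and C1qc, the A, B and C chains of C1q, differed little between the transfer groups and greatly between libraries of the same group. C1qa stood at 148, 88.0, 235, 323 and 413 CPM in ALDHbr 1 to 5, against 190, 56.5, 177, 424 and 406 CPM in ALDHdim 1 to 5. The groups overlapped along nearly their whole range, with library 2 lowest and libraries 4 and 5 highest in both. Its log2 fold change, ALDHbr over ALDHdim, was -0.03 (SE 0.57), and the 95% interval ran from 0.403-fold to 2.37-fold.

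C1qb stood at 134, 58.7, 160, 256 and 317 CPM in ALDHbr 1 to 5, against 141, 37.8, 160, 287 and 333 CPM in ALDHdim 1 to 5 (log2 fold change -0.02, SE 0.58). C1qc stood at 163, 99.8, 193, 289 and 289 CPM in ALDHbr 1 to 5, against 175, 44.9, 181, 347 and 356 CPM in ALDHdim 1 to 5 (-0.08, SE 0.51). For each chain the lowest of the 10 libraries was ALDHdim 2 and the next ALDHbr 2. These were the libraries of lowest and of highest depth, with 45 counts of C1qa in ALDHbr 2 and 112 in ALDHdim 2. The labels do not say that a shared number marks a batch.

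Ms4a7 (chr19:11321039-11336146, minus strand) encodes a four-span membrane protein of the MS4A family and is used here as a macrophage marker. Its level was 17.1, 3.91, 24.6, 40.9 and 48.3 CPM in ALDHbr 1 to 5, against 23.4, 5.04, 32.3, 55.6 and 56.6 CPM in ALDHdim 1 to 5. The groups overlapped, and the same 2 libraries were again the lowest, at 2 counts in ALDHbr 2 and 10 in ALDHdim 2. The log2 fold change was -0.24 (SE 0.62). Without ALDHbr 2 it was -0.06, and without ALDHdim 2 it was -0.55 with an adjusted p of 0.976 by edgeR's quasi-likelihood test.

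**Figure D1:**
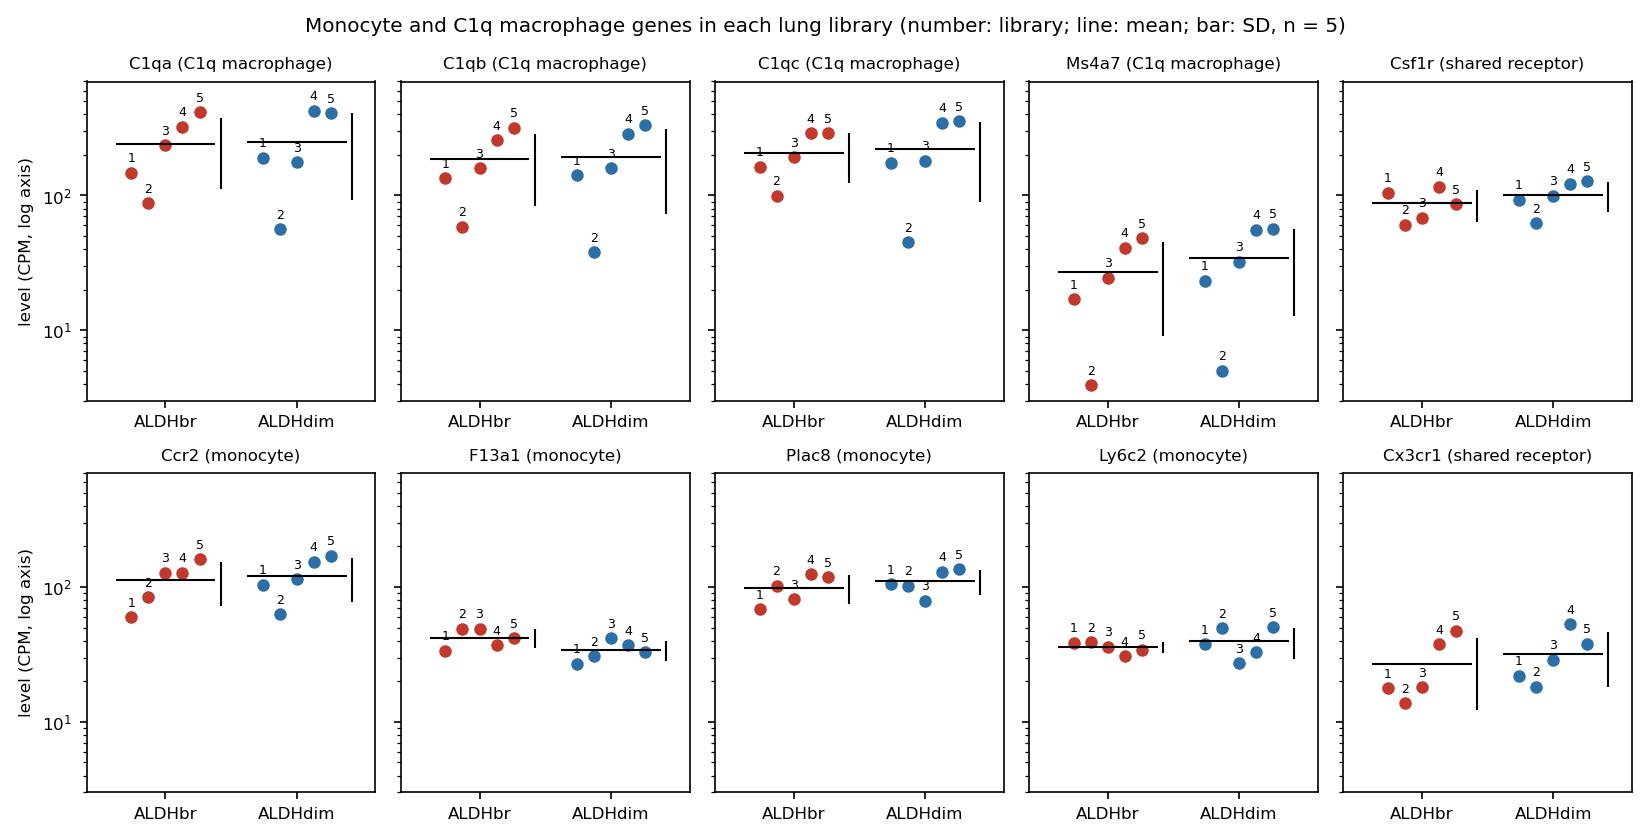
Level of each gene in CPM on a log axis, 1 point per lung library (its number above it), ALDHbr in red and ALDHdim in blue; the line is the mean and the bar beside it the SD (n = 5 each). The C1q chains and Ms4a7 spread over the axis within both groups and are lowest in library 2, while F13a1, Plac8 and Ly6c2 differ 1.82-fold to 1.98-fold between their lowest and highest libraries.

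The receptors of both cell types overlapped between the groups, and between their lowest and highest library Csf1r differed 2.10-fold and Cx3cr1 3.87-fold. Csf1r (chr18:61100598-61132149, plus strand) was at 105, 60.6, 68.6, 116 and 86.6 CPM in ALDHbr 1 to 5, against 93.0, 62.6, 99.5, 122 and 127 CPM in ALDHdim 1 to 5. The log2 fold change was -0.17 (SE 0.20; interval 0.659-fold to 1.20-fold). Cx3cr1 (chr9:119901616-120069879, minus strand) is the receptor of fractalkine (Cx3cl1) and marks patrolling monocytes and some interstitial macrophages. It was at 17.7, 13.7, 18.1, 37.8 and 47.5 CPM in ALDHbr 1 to 5, against 22.0, 18.2, 28.9, 53.0 and 37.9 CPM in ALDHdim 1 to 5, a log2 fold change of -0.16 (SE 0.36). Its highest libraries were numbers 4 and 5 in both groups.

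Among the monocyte genes, Ccr2 (chr9:124101950-124113557, plus strand) varied most between libraries. It was at 59.5, 84.1, 128, 128 and 161 CPM in ALDHbr 1 to 5, against 104, 62.6, 114, 154 and 171 CPM in ALDHdim 1 to 5. Both groups had their highest level in library 5, and the log2 fold change was -0.10 (SE 0.30). Plac8 (chr5:100553725-100572245, minus strand), a small cysteine-rich protein of monocytes and other leukocytes, was at 68.4, 102, 81.5, 124 and 118 CPM in ALDHbr 1 to 5, against 105, 102, 79.1, 130 and 136 CPM in ALDHdim 1 to 5 (-0.16, SE 0.18). The groups overlapped, with the lowest level in ALDHbr 1.

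F13a1 (chr13:36867178-37050244, minus strand) encodes the A subunit of coagulation factor XIII, which crosslinks fibrin, and in addition to monocytes it is made by platelet precursors and some resident macrophages. It was at 33.6, 48.9, 49.2, 37.0 and 41.7 CPM in ALDHbr 1 to 5, against 27.0, 30.8, 41.7, 37.0 and 33.0 CPM in ALDHdim 1 to 5. It was the only one of the 10 genes with a higher estimate in ALDHbr lungs, 0.29 (SE 0.17; interval 0.949-fold to 1.57-fold; unadjusted p = 0.113 and adjusted p = 0.99925 with edgeR). The groups overlapped, and the values without each library ran between 0.22 and 0.37. Of 7 platelet and megakaryocyte markers only Ppbp passed the filter, and their summed level was 17.3 to 54.5 CPM in ALDHbr and 28.9 to 67.6 CPM in ALDHdim lungs. Gp1bb, with 2 counts over all 10 libraries, and Tubb1, with 1, were nearly undetected in both groups. The part of platelets and their precursors in the F13a1 level was not tested.

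Ly6c2 (chr15:75108158-75111970, minus strand), which encodes the Ly6C2 surface protein, was at 38.6, 39.1, 36.2, 30.7 and 34.2 CPM in ALDHbr 1 to 5, against 37.6, 49.4, 27.2, 32.8 and 50.5 CPM in ALDHdim 1 to 5 (-0.18, SE 0.19). The ALDHbr libraries all lay inside the ALDHdim range. Ly6c2 has a close relative, Ly6c1, which endothelial cells also make, 59.3 kb away on chromosome 15. Of the stretches of 81 bases (the read length) in the last 400 bases of coding Ly6c2 transcripts, 20.1% were also in Ly6c1, against 0% shared with any other gene for each of the other 9 genes. Ly6c1 averaged 391 ± 52.2 CPM in ALDHbr lungs, against 425 ± 46.8 CPM in ALDHdim lungs (SD, n = 5 each). The labels do not say how reads matching both genes were counted, so the split between them is uncertain.

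None of the 10 genes passed the threshold of 0.05 on the adjusted p in edgeR's quasi-likelihood test, beside 0% of all 10844 genes tested (0 genes). The adjusted p was 0.99925 for each of the 10. Before adjustment, p was under 0.05 for 402 genes with edgeR, 314 with DESeq2 and 690 with limma-voom, and no member was among them. DESeq2 and limma-voom called 0 genes after adjustment. For 0 of the 10 members did the ALDHbr and ALDHdim libraries lie apart without overlap, beside 0.535% of all genes tested. The median log2 fold change was -0.05 for the C1q macrophage genes and -0.13 for the monocyte genes, beside 0.01 over all genes tested. In bulk tissue, fewer cells of a type and less RNA per cell cannot be told apart.

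**Figure D2:**
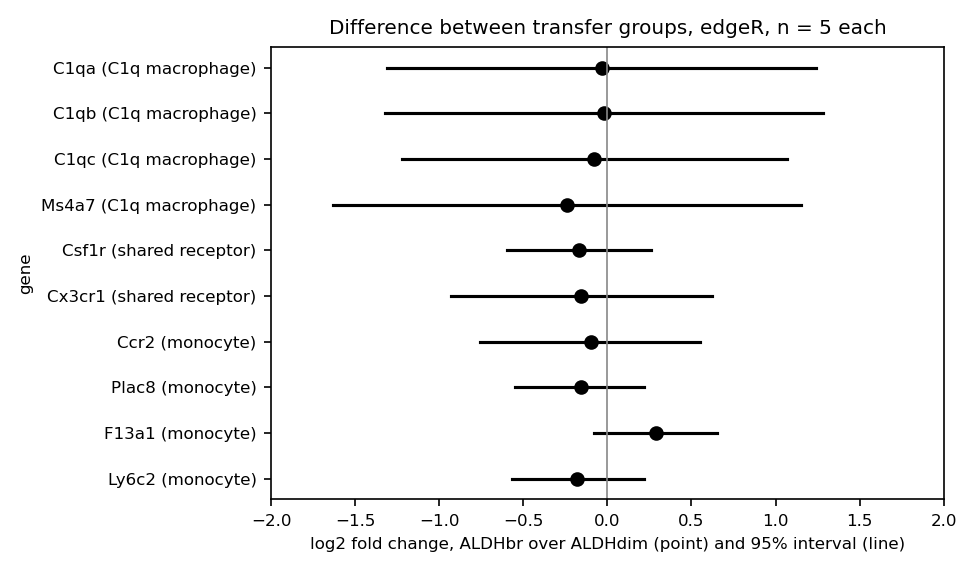
Log2 fold change, ALDHbr over ALDHdim, of each gene (point) with its 95% interval (line) from edgeR, n = 5 libraries each. All 10 intervals include 0, and those of the C1q chains and Ms4a7 are the widest, from -1.63 to 1.15 for Ms4a7.

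The C1q macrophage genes spread more between libraries than the monocyte genes, which is given as a description with no test. Between its lowest and its highest library, C1qa differed 7.50-fold, C1qb 8.81-fold, C1qc 7.93-fold and Ms4a7 14.5-fold. Ccr2 differed 2.88-fold, Plac8 1.98-fold, Ly6c2 1.86-fold and F13a1 1.82-fold. Within groups, the SD of the log2 level was 1.04 for C1qa, 1.09 for C1qb, 0.96 for C1qc and 1.28 for Ms4a7, and at least 98.9% of all genes tested had an SD no larger than theirs.

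For the 500 genes nearest to C1qa in mean level the median SD was 0.23, and counting error alone gives about 0.11 at its counts. For Ms4a7, with counts as low as 2, counting error alone gives 0.41. F13a1 had an SD of 0.23, against 0.22 from counting error alone, and Ly6c2 had 0.28, against 0.23. At this depth hardly any difference in F13a1 between libraries of a group could be seen beyond counting error. Ccr2 (0.56 against 0.13), Cx3cr1 (0.66 against 0.29), Csf1r (0.40 against 0.15) and Plac8 (0.33 against 0.14) spread beyond their counting error. Counts of PCR copies are not independent molecules, so these figures cover counting error only.

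**Figure D3:**
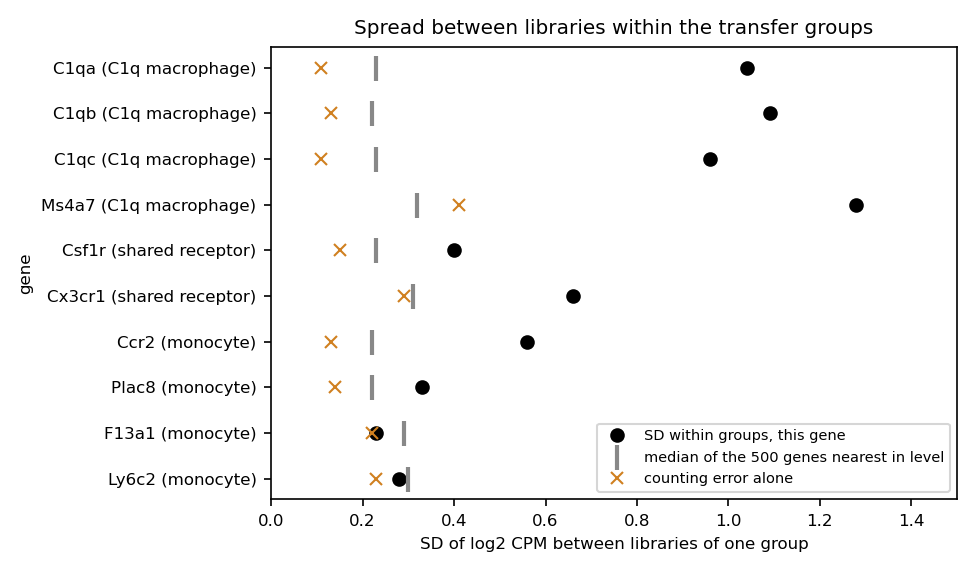
SD of log2 CPM between libraries of the same group for each gene (black point), the median of the 500 genes nearest in mean level (grey bar) and the SD that counting error alone gives (orange cross). The C1q chains stand near 1 on this scale, while F13a1 and Ly6c2 stand close to their counting error at 0.22 and 0.23.

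The proportions of the 3 chains varied less than their levels. The C1qa to C1qb count ratio was 1.33 ± 0.161 in ALDHbr and 1.33 ± 0.167 in ALDHdim lungs (SD, n = 5 each), and the SD of its log2 over all 10 libraries was 0.17, equal to the 0.17 that counting error gives. The C1qb to C1qc ratio was 0.845 ± 0.181 in ALDHbr and 0.858 ± 0.0528 in ALDHdim lungs, with an SD of 0.22 against 0.17 from counting error. It ran from 0.588, in ALDHbr 2, where C1qb had 30 counts, to 1.10. The C1qa to C1qc ratio was 1.11 ± 0.227 in ALDHbr and 1.14 ± 0.112 in ALDHdim lungs and ran from 0.882 to 1.43, with an SD of 0.22 against 0.16 from counting error.

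Over the 10 libraries the C1q macrophage genes had high correlations with each other. Those among the monocyte genes were lower, but F13a1 and Ly6c2 spread little beyond counting error, which limits any r with them. All 45 pairs of genes were compared by Pearson's r and Spearman's rho of log2 CPM. They are given as a description with no p, since the genes were picked with earlier results in view and same-numbered libraries had like C1q levels. The 6 pairs among C1qa, C1qb, C1qc and Ms4a7 had r from 0.93 to 0.99 and rho from 0.92 to 0.99. Without the 2 libraries farthest from the median of the first gene, r of these pairs was 0.93 to 0.97.

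The 6 pairs among the monocyte genes had r from -0.40 to 0.63 with a median of 0.00. Ccr2 and Plac8 gave the highest (r = 0.63, rho = 0.77), with r = 0.55 when ALDHbr 1 and ALDHdim 2 were left out. The lowest was that of F13a1 and Ly6c2 (r = -0.40, rho = -0.42). Both spread little beyond counting error (SD 0.23 against 0.22, and 0.28 against 0.23), so a low r with either says little. Whether the pairs of the C1q set and of the monocyte set differ was not tested.

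Of the monocyte genes, Ccr2 was the closest to the C1q macrophage genes. Its r with C1qa was 0.89 (rho = 0.90), and 0.88 without ALDHbr 2 and ALDHdim 2. With C1qb, C1qc and Ms4a7 its r was 0.84, 0.84 and 0.82. Plac8 and C1qa had r = 0.49 and rho = 0.71 over all libraries, and r = 0.89 without ALDHbr 2 and ALDHdim 2, where C1qa was low and Plac8 stood at 102 CPM in both. F13a1 and C1qa had r = 0.07 (rho = 0.10). Ly6c2 and C1qa had r = -0.34 (rho = -0.39), and 0.19 without ALDHbr 2 and ALDHdim 2.

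Of the shared receptors, Cx3cr1 had r = 0.84 with C1qa (rho = 0.85), and 0.87 without ALDHbr 2 and ALDHdim 2. With C1qb, C1qc and Ms4a7 its r was 0.83, 0.77 and 0.86. Csf1r had r = 0.74 with C1qa (rho = 0.62), 0.80 with C1qb (rho = 0.66), 0.79 with C1qc (rho = 0.72) and 0.82 with Ms4a7 (rho = 0.77). Without ALDHbr 2 and ALDHdim 2 these 4 were 0.34, 0.47, 0.56 and 0.50, so a large share of each rests on those libraries. When each group's mean was removed, r of C1qa with Csf1r was 0.78, with Cx3cr1 0.87 and with Ccr2 0.90. Within a single group 5 libraries were too few for a correlation.

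**Figure D4:**
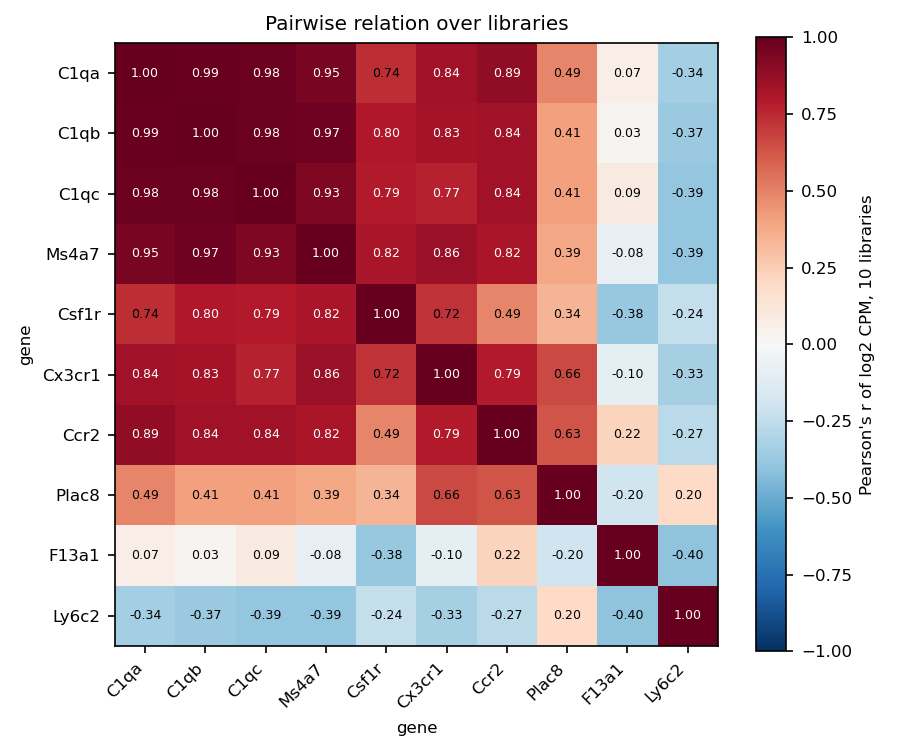
Pearson's r of log2 CPM over the 10 libraries for each pair of genes, red for positive and blue for negative. The C1q chains and Ms4a7 form a block of r from 0.93 to 0.99 beside which Ccr2 and Cx3cr1 have r from 0.77 to 0.89 with them, while F13a1 and Ly6c2 stay near 0 or below it. F13a1 and Ly6c2 spread little beyond counting error, which limits their r.

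Set against each other within each library, monocyte and C1q macrophage genes gave a difference that varied far more between libraries than between the group means. The measure is the mean of centred log2 CPM over the 4 monocyte genes minus that over the 4 C1q macrophage genes, given with no test because these genes were picked with earlier results in view. It was -0.06, 1.44, -0.02, -0.63 and -0.71 in ALDHbr 1 to 5, against -0.03, 1.78, -0.20, -0.84 and -0.73 in ALDHdim 1 to 5. Library 2 stood highest and libraries 4 and 5 lowest in both groups, and the groups overlapped. The group means differed by 0.01 (ALDHbr minus ALDHdim), beside an SD within the group of 0.86 in ALDHbr and 1.05 in ALDHdim lungs (n = 5 each).

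The C1q side spanned more of that swing than the monocyte side. The C1q macrophage mean spanned 3.0 on the log2 scale between its lowest and highest library, and the monocyte mean spanned 0.71. Relative to each gene's mean over the 10 libraries, monocyte genes were thus 2.71-fold higher than C1q macrophage genes in ALDHbr 2 and 3.43-fold higher in ALDHdim 2, against 0.611-fold in ALDHbr 5 and 0.560-fold in ALDHdim 4. Without ALDHdim 2 the difference between the groups was 0.45, and without ALDHbr 2 it was -0.35, the lowest and highest values when 1 library was left out. Its sign also turned without ALDHdim 3, 4 or 5 (-0.04, -0.20 and -0.18). Without ALDHbr 4 it was 0.16 and without ALDHbr 5 it was 0.18, so neither its sign nor its size is fixed by these data. Without ALDHbr 2 and ALDHdim 2 together it was 0.09.

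**Figure D5:**
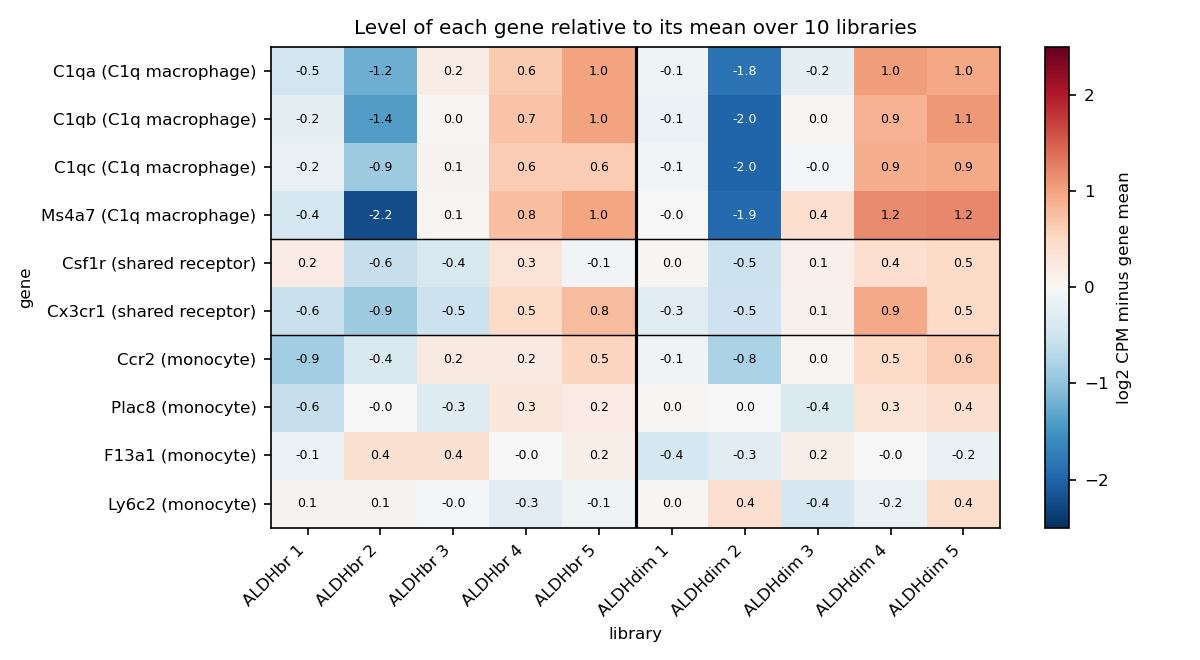
Log2 CPM of each gene minus its mean over the 10 libraries, ALDHbr 1 to 5 left of the line and ALDHdim 1 to 5 right of it. Blue columns at library 2 of both groups and red columns at libraries 4 and 5 run through the C1q chains and Ms4a7, and are absent from F13a1 and Ly6c2.

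Other genes of tissue macrophages tended to follow the C1q chains from library to library. Of 21 such genes tested, 12 had r of at least 0.8 with the mean of C1qa, C1qb and C1qc over the 10 libraries, which 3.62% of all genes tested had. These correlations are given as a description, without a test. Cd68, a lysosomal glycoprotein, had r = 0.98, Trem2, a lipid-sensing receptor of scar-associated macrophages, 0.97, Ctss, the lysosomal protease cathepsin S, 0.97, and C3ar1, the receptor of complement fragment C3a, 0.96. Trem2 averaged 48.5 ± 25.4 CPM in ALDHbr lungs, against 43.8 ± 32.9 CPM in ALDHdim lungs (log2 fold change 0.21, SE 0.64).

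Not all macrophage genes joined them. Lyve1 had r = -0.86 and Selenop -0.74. Both are made by a subset of resident macrophages, and Lyve1 also by lymphatic endothelium. Pf4 (0.25), Cd163 (-0.03) and Mertk (-0.50) were not close to the C1q chains either. None of the 21 genes passed between the groups (8 higher, 13 lower, median log2 fold change -0.07).

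Genes of alveolar macrophages were mixed in how they went with C1q. Of 10 tested markers 6 had a negative r with the C1q chains, beside 49.3% of all genes tested, and the median r was -0.60, beside 0.01. The negative ones were Car4 (-0.88), Cidec, a lipid droplet protein (-0.85), Ear1, an eosinophil-type ribonuclease (-0.81), Siglecf, a surface lectin (-0.74), Chil3 (-0.65) and Marco, a scavenger receptor (-0.55). The positive ones were Itgax, the integrin CD11c (0.79), Plet1 (0.47), Pparg, a transcription factor these cells need (0.34), and Ear2 (0.20). Endothelial markers had r from -0.87 to -0.44, close to that of Car4 at the low end, and which cells made the Car4 RNA was not tested. The alveolar macrophage genes differed between groups by a median log2 fold change of -0.12, with 4 higher, 6 lower and 0 past the threshold.

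The wider monocyte lists were mixed in how they went with C1q. Of 16 other classical monocyte genes, 3 had r of at least 0.8 with the C1q chains, which 3.62% of all genes tested had. These were Ccl9, a chemokine, at 0.95, S100a4, a calcium-binding protein, at 0.81 and Vcan, the proteoglycan versican, at 0.80. Of the 16, 12 had a positive and 4 a negative r, with a median of 0.28, beside 0.01 over all genes tested. The lowest was Smpdl3a (-0.57), and Ms4a4c had r = -0.12. Between groups 6 of the 16 had higher and 10 lower estimates, with 0 past the threshold and a median of -0.12. Of 7 non-classical monocyte genes tested, 3 were higher and 4 lower, 0 passed and the median was -0.03. Nr4a1, a nuclear receptor needed by these cells in mice, averaged 41.3 ± 21.9 CPM in ALDHbr lungs, against 39.1 ± 19.6 CPM in ALDHdim lungs.

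None of the ligands of these receptors passed between the groups. Ccl2 and Ccl7, ligands of CCR2, averaged 5.71 ± 5.12 and 5.96 ± 4.0 CPM in ALDHbr lungs, against 8.08 ± 7.01 and 6.11 ± 5.54 CPM in ALDHdim lungs. Both were below the filter and not tested. Ccl12, a further ligand of CCR2 in mice, averaged 9.81 ± 6.01 CPM in ALDHbr lungs, against 10.9 ± 7.95 CPM in ALDHdim lungs (log2 fold change -0.07, SE 0.61), and its r with the C1q chains was 0.86. Csf1 averaged 28.1 ± 8.49 CPM in ALDHbr lungs, against 36.2 ± 6.57 CPM in ALDHdim lungs (-0.33, SE 0.21), and Il34 11.3 ± 1.85 CPM in ALDHbr lungs, against 12.7 ± 4.0 CPM in ALDHdim lungs (-0.10, SE 0.26). Cx3cl1, the ligand of CX3CR1, averaged 28.0 ± 13 CPM in ALDHbr lungs, against 36.2 ± 11.9 CPM in ALDHdim lungs (-0.32, SE 0.30), with r = -0.55. All 4 tested ligands had lower estimates, and 0 passed.

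Genes of the proteins that work with C1q had a median r of 0.18 with its chains, beside 0.01 over all genes tested. None reached r = 0.8, but only 3.62% of all genes tested did, so that says little of so few genes. C1ra and C1s1 encode the proteases that C1q carries, C4b and C2 their substrates, C3 the next component and Serping1 the C1 inhibitor. The r of these 6 genes with the C1q chains ran from -0.29 for C2 to 0.59 for C1ra. C1s1 averaged 73.0 ± 21.9 CPM in ALDHbr lungs, against 92.4 ± 19.1 CPM in ALDHdim lungs (-0.31, SE 0.19), and C4b 61.7 ± 21.7 CPM in ALDHbr lungs, against 78.1 ± 17.5 CPM in ALDHdim lungs (-0.28, SE 0.22). C3 averaged 223 ± 82.2 CPM in ALDHbr lungs, against 281 ± 45.7 CPM in ALDHdim lungs (-0.33, SE 0.22). Of the 6, 2 had higher and 4 lower estimates, and 0 passed.

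The 6 genes nearest to the C1q chains, of 10404 compared, were Retnla, a secreted protein of alternatively activated macrophages (r = 0.98, rho = 0.94), Clcn5, a chloride-proton exchanger of endosomes (0.98, 0.95), Cd68 (0.98, 0.98), P2ry6, a receptor of UDP (0.97, 0.98), Apoe, the lipid carrier apolipoprotein E (0.97, 0.93), and the protease cathepsin B, Ctsb (0.97, 0.99). Without ALDHbr 2 and ALDHdim 2 their r was 0.91 to 0.97. The highest r with the mean of the monocyte genes were those of Ptger4, a prostaglandin E2 receptor (r = 0.95, rho = 0.95), and Pycard, the adaptor ASC of inflammasomes (0.92, 0.98), followed by St8sia6 (0.91), Idh1 (0.91), Tnfaip8l2 (0.91) and Btf3 (0.90). At r over 0.9 there were 117 genes for the C1q chains and 6 for the monocyte mean. The monocyte genes had a median r of 0.00 among themselves, so their mean need not stand for a shared pattern. The named genes were picked as the highest of all genes, so their r is a description.

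Epithelial, endothelial, erythroid and, by r more than by rho, neutrophil markers tended to run against the C1q level. Their median r with the C1q chains was -0.81, -0.70, -0.62 and -0.51, beside 0.01 over all genes tested. The 8 lung epithelial markers, all tested and none at 0, summed to 52000, 97500, 59700, 40800 and 42500 CPM in ALDHbr 1 to 5, against 63600, 76800, 64000, 40500 and 36000 CPM in ALDHdim 1 to 5. The sum was highest in library 2 of each group, where C1q was lowest. Much of it was Sftpc and Scgb1a1, at 35800 and 44500 CPM in ALDHbr 2. Of the 8 markers 7 had a negative r with the C1q chains. Epcam had r = 0.42 and differed only 1.28-fold between its lowest and highest library. All 8 endothelial markers had a negative r with the C1q chains and summed to 1830 to 3400 CPM in ALDHbr and 1840 to 3680 CPM in ALDHdim lungs. The 5 erythroid markers summed to 4570 to 14200 CPM in ALDHbr and 1620 to 14100 CPM in ALDHdim lungs, and were lowest in ALDHdim 4 and 5, where C1q was high, though in ALDHbr 4, where C1q was high too, they summed to 13600 CPM. Of these 5 markers 4 were tested. Neutrophil markers, 8 of 9 tested, summed to 561 to 915 CPM in ALDHbr and 772 to 1300 CPM in ALDHdim lungs, with the highest sum in ALDHdim 2. By group mean much of the sum was Lcn2, at 581 ± 167 CPM in ALDHbr lungs, against 536 ± 155 CPM in ALDHdim lungs. Its r with the C1q chains was 0.87. In ALDHdim 2, though, Lcn2 was at its lowest of the 10 libraries, 262 CPM, beside 484 CPM of S100a9 and 300 CPM of S100a8. S100a8, S100a9, Retnlg, Csf3r and Cxcr2 had r from -0.67 to -0.51. Their rho with the C1q chains was weaker, from -0.43 for S100a9 to -0.10 for S100a8. Of the 8 neutrophil markers 7 had lower and 1 higher estimates in ALDHbr lungs, with a median log2 fold change of -0.79, beside 0.01 over all genes tested, and 0 passed. S100a8, S100a9, Retnlg, Csf3r, Cxcr2 and Il1b each peaked in ALDHdim 2, while Mmp8 and Lcn2 did not. Cxcr2 stood at 35.3 CPM in that library. Its level was 7.81, 5.10, 8.42 and 8.79 CPM in ALDHdim 1, 3, 4 and 5, and 5.17 to 11.4 CPM in ALDHbr lungs. How far the median log2 fold change, or the r of neutrophil markers with C1q, rests on ALDHdim 2 was not tested. The part of these cells in the C1q differences was not tested.

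Lymphocytes and dendritic cells, some of which also make Plac8 or Ly6C, showed smaller swings than the C1q genes. The T and natural killer cell markers, 6 of 9 tested, summed to 88.7 to 158 CPM in ALDHbr and 97.3 to 141 CPM in ALDHdim lungs. The B cell markers, 5 of 6 tested, summed to 81.7 to 173 CPM in ALDHbr and 91.0 to 134 CPM in ALDHdim lungs, and the dendritic cell markers, 7 of 9 tested, to 145 to 195 CPM in ALDHbr and 132 to 179 CPM in ALDHdim lungs. All 7 tested dendritic cell markers had higher estimates in ALDHbr lungs, with a median log2 fold change of 0.13, and 0 passed.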

How the data were processed

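For the 10 lung libraries the authors deposited unnormalized whole-number counts by gene. The labels' protocols describe BRB-seq, whose first read holds a 10 nt UMI and then a 9 nt barcode, and whose second read holds 81 nt of RNA. Per the submitters' processing notes the aligner HISAT2 (version 2.2.1), the counter featureCounts (version 2.0.1), Trim Galore (version 0.6.7), UMI-tools and DESeq2 were used, and the builds GRCm38 and GRCh38 are listed. No source used here states the role of each, the strand setting, the annotation or whether UMIs were collapsed, so counts may hold PCR copies and antisense reads. Genes were matched by symbol and positions taken from GENCODE mouse release 21 (GRCm38).

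Genes were filtered by filterByExpr (minimum count 10), scaled by TMM, and tested by the quasi-likelihood functions of edgeR (version 4.0.16, R 4.3.3), with Benjamini-Hochberg adjustment over 10844 genes and a threshold of 0.05. The 10844 genes held 97.3% of all counts. Each SE was computed as the absolute fold change over the square root of F. Log2 levels used a prior count of 2. Alternatives were DESeq2 1.42.0, limma 3.58.1 (voom with sample weights), other scalings and filters, the replicate number as a term, and left-out libraries. Ranks were computed with SciPy 1.17.1 and plots were drawn with matplotlib 3.10.9. The edgeR step was tested on simulated data.

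The members and lists were chosen with earlier results of these data known. Named genes are the 10 members, the ligands, the complement partners, Ly6c1, the 6 genes most like each set, and list genes a result turns on; the last were picked after their values were seen. No pair of replicate numbers is stated to be a batch. Some genes of the lists are not reported here.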

Additional observations from a re-analysis of the deposited data

Results flagged for a closer look

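In 26 sets of 5 values (each of the 10 genes, the C1q macrophage mean, the monocyte mean and their difference, within each group) 0 had a library standing apart by Dixon's test at the 95% level, where chance gives about 1.3. The gaps between library 2 and the next library therefore did not reach that limit. Genes were taken as CPM and not as log2, where a low library stands out less. The C1q sets vary together, so the 1.3 is rough. Each set holds a single group, so the check cannot assess a number that is low in both.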

How the results depend on the processing

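Over 20 alternatives none of the 10 genes passed the threshold (smallest adjusted p 0.488). Without the low-count filter 185 of 33347 genes passed, against 0 with it, none of them a member, and the median log2 fold change of all genes was 0.22 there, against 0.01. Csf1r, Plac8, Ly6c2 (lower) and F13a1 (higher) kept their direction under all 20. The other 6 had a sign that turned in 27 of the 200 values of all members. With limma-voom C1qa was 0.20, C1qb 0.21, C1qc 0.16, Ms4a7 0.10, Cx3cr1 0.06 and Ccr2 0.03. No label says whether the replicate numbers pair the samples, and the main test left them unpaired. The deviations of same-numbered libraries had correlations of 0.06, 0.37, 0.15, 0.26 and 0.28. Of 10 libraries, 7 correlated best with their own number, a hint from the data that leaves pairing open. With the replicate block C1qa was 0.02, C1qb 0.01 and C1qc 0.03, Csf1r was -0.21, Cx3cr1 -0.24 and Ms4a7 -0.37, and 0 genes passed, as without it. Ms4a7 had the lowest unadjusted p of the members there, 0.0535 (0.707 without the block), and an adjusted p of 0.730. Leaving out 1 library at a time gave values from -0.32 to 0.23 for C1qa, -0.30 to 0.29 for C1qb, -0.34 to 0.18 for C1qc, -0.55 to 0.06 for Ms4a7, -0.46 to 0.08 for Cx3cr1 and -0.28 to 0.08 for Ccr2. The monocyte minus C1q macrophage difference ran from -0.35 to 0.45 there, moving by less than the SD within a group. Its value was 0.25 without ALDHbr 3 and ALDHbr 5, and -0.15 as a ratio of summed CPM. Leaving out ALDHbr 2 and ALDHdim 2 together was chosen after seeing the data. Why values moved was not tested. With 30 to 607 counts of C1qb per library, depth limits mainly Ms4a7, F13a1, Ly6c2 and Cx3cr1.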
